A study of Mus musculus with 4 samples.

Results

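Homologous recombination, the Fanconi pathway and mismatch repair correct the breaks, crosslinks and copying errors that arise mostly while DNA is replicated. In recombination, a broken end is cut back to single-stranded DNA, the BRCA proteins prepare it for pairing with the sister strand, and the lost sequence is copied from there. The Fanconi core complex adds ubiquitin to the FANCD2 and FANCI proteins at crosslinked DNA, and mismatch repair removes wrongly paired bases behind the replication fork. Many genes of these pathways are known to be expressed mainly in dividing cells, which in the embryonic retina are the progenitors, whereas photoreceptor precursors have left the cell cycle.

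The expression of 36 genes of these pathways was described, and 34 of them had a feature (probe set) of their own among the 22431 features measured. Features whose platform annotation gave exactly 1 gene symbol were matched to the list by that symbol, and of several features the 1 with the highest mean of the 4 arrays stood for the gene. Bard1 was the 1 gene with more than 1 feature. Rbbp8 and Xrcc2 were not analysed here.

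Retinal cells of embryonic BAC-Crx-EGFP mice (background 129Sv/Ev) were sorted at E17.5, before birth, by their EGFP signal into a positive and a negative fraction. All groups carried the transgene, in which a reporter of enhanced green fluorescent protein is placed under regulatory sequences of Crx, a transcription factor gene of photoreceptors, on a bacterial artificial chromosome. Each fraction was measured as 2 samples, replicates 1 and 2, on 1 Affymetrix whole-transcript array each, from 100 ng of total RNA. Nothing in the labels tells whether a replicate stands for another animal, litter or sort, so the spread behind the p-values may be technical. The negative fraction is a mixture of all retinal cells that were sorted as negative for the EGFP signal. In such bulk samples fewer cells of a type and less RNA per cell cannot be told apart.

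The fractions were checked with marker lists. All 10 photoreceptor precursor markers read higher on both positive arrays than on both negative ones, against 22.3% of all features. The limma test called 8 of them, against 0.82% of features called higher. Their intensities summed to 24231.2 and 29520.3 on the positive arrays, against 4219.8 and 4237.4 on the negative arrays. Crx differed by 3.66 ± 0.19 on the log2 scale (limma adjusted p = 0.00596). The sort used a reporter under Crx regulatory sequences, so Crx is not an independent check of the fractions. Rbp3, a retinoid-binding protein gene of photoreceptors, differed by 4.37 ± 0.19 (limma adjusted p = 0.00576). The progenitor transcription factor gene Sox2 fell by 1.36 ± 0.10 (limma adjusted p = 0.0119). Of 11 progenitor markers 10 had a difference below 0, against 52.2% of all features. Both positive arrays read below both negative arrays for 7 of the 11, against 25.3% of features. Sox2 was the 1 marker of this list called by limma, against 0.143% of features called lower. Six6 differed by -0.02 and Rax by 0.08. Summed progenitor markers were 25450.2 and 19273.7 on positive arrays 1 and 2, against 35616.8 and 35555.5 on the negative arrays, so positive replicate 2 had the lowest sum. Ccnd1 and Fgf15, the markers of highest intensity in that list, weighed most in these sums. All 5 amacrine markers were higher in the positive fraction, and 2 of them passed the test, against 0.82% of features called higher. Of the 4 horizontal cell markers none was called by limma, and 2 were higher at an unadjusted p under 0.05, against 9.34% of features. The sum of the 4 was 1956.8 and 3641.1 on positive arrays 1 and 2, against 1677.6 and 1586.4 on the negative arrays. The transcription factor gene Onecut2 among them read 504.3 and 1608.4 against 300.8 and 374.5. All 9 ganglion cell markers were higher in replicate 2 of both fractions. Over all features, 45.5% were lower on positive replicate 2 than on positive replicate 1, and 57.5% lower on negative replicate 2 than on negative replicate 1.

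Most repair genes read lower in the EGFP-positive than in the EGFP-negative cells, with log2 differences below 0 for 32 of the 34 genes, against 52.2% of all features. The median log2 difference, positive minus negative, was -0.60, or 1.52-fold higher intensity in the negative fraction, against -0.01 over all features. Both positive arrays read below both negative arrays for 29 genes, whereas 25.3% of all features did so, and both read above for 1 gene, against 22.3%. The difference was at least 2-fold toward the negative fraction for 6 genes, against 1.02% of features. Fignl1 was the 1 gene that passed the test over all features (limma with Benjamini-Hochberg adjustment over 22431 features, threshold 0.05), which called 0.143% of features lower. No repair gene was called higher, against 0.82% of features, and at an unadjusted p under 0.05 the counts were 23 lower and 0 higher, against 9.83% and 9.34% of features. The smallest difference called among all features was 0.75 in size, and 13 of the 34 genes had a larger one.

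How many genes were called depended on single arrays, and also on whether the replicate number entered the fit, as given in the closing sections. A fit without 1 array leaves that fraction with 1, whose spread is then taken to be that of the other fraction's replicates, and the positive replicates of these genes varied more than the negative ones (median SD of log2 intensity 0.28 against 0.13). In the limma fit that left out positive replicate 1, 16 of the 34 genes were called lower, against 3.4% of features. Without negative replicate 1 or without negative replicate 2 limma called 0 repair genes and 0 features in either direction, with 10 and 16 repair genes at an unadjusted p under 0.05, against 10.5% and 14% of features. Without positive replicate 2 it called 1, against 0.0535% of features, and the median difference was -0.38 instead of -0.60.

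**Figure D1:**
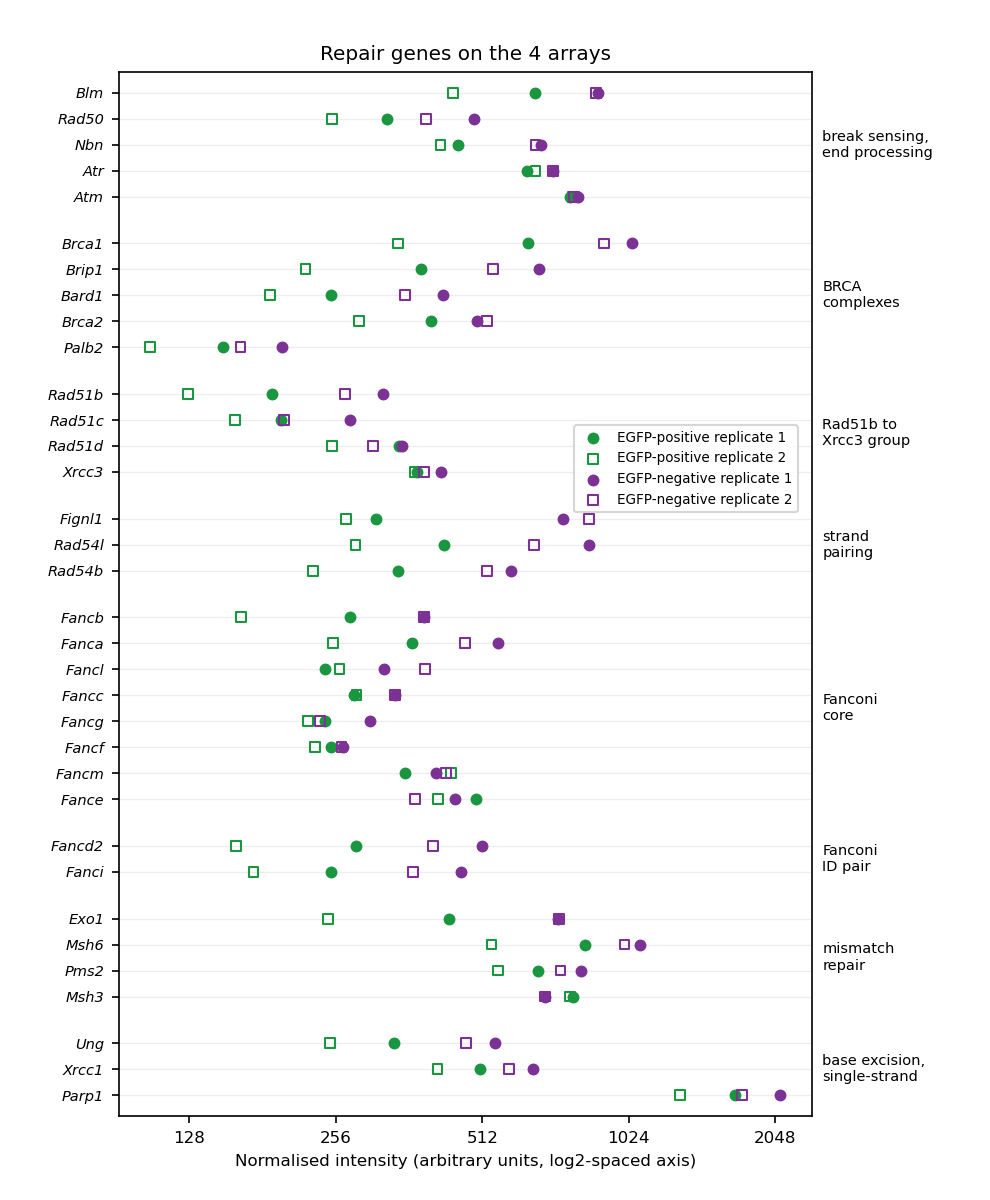
Normalised intensity of the 34 repair genes (rows, grouped by role) on each of the 4 arrays, on a log2-spaced axis; circles are replicate 1, open squares replicate 2, green the EGFP-positive and purple the EGFP-negative fraction. Positions are comparable between arrays within a gene and not between genes. For 29 genes both green symbols lie to the left of both purple ones, and positive replicate 2 is the lowest array for 27.

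The 3 genes of the strand pairing step (Fignl1, Rad54l and Rad54b) had a median difference of -1.10, the lowest of the repair classes. The feature for Fignl1 (10384373, Entrez gene 60530) read 309.4 and 268.3 on the positive arrays, against 748.8 and 848.4 on the negative arrays. Fignl1 encodes an AAA ATPase of homologous recombination. The groups lay far apart relative to their spread, and Fignl1 fell by 1.47 ± 0.13 on the log2 scale (SE, n = 2 per fraction, limma adjusted p = 0.0200), or 2.77-fold. Over the 11 alternative fits its adjusted p ranged from 0.00489 to 0.172. It was lost in 2 of them, at 0.164 without negative replicate 1 and 0.172 without negative replicate 2.

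Rad54l and Rad54b encode motor proteins that help to pair the broken strand with its template. Rad54l read 428.2 and 281.0 on the positive arrays, against 846.8 and 654.9 on the negative arrays, a log2 difference of -1.10 ± 0.24 (adjusted p = 0.102). Rad54b read 343.5 and 230.3 against 587.1 and 523.6 (-0.98 ± 0.21, adjusted p = 0.0993). In both genes the fractions did not overlap, but the positive replicates differed more than those of Fignl1, with an SD of log2 intensity of 0.43 for Rad54l and 0.41 for Rad54b against 0.15 for Fignl1.

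All 5 genes of the BRCA complexes had lower values on both positive arrays, against 25.3% of all features, with a median difference of -0.84. None passed the limma test over all features, and all 5 were lower at an unadjusted p under 0.05, against 9.83% of features. Brca1, whose product directs broken ends toward recombination, read 634.4 and 343.7 on the positive arrays, against 1041.3 and 909.8 on the negative arrays (-1.06 ± 0.30, adjusted p = 0.150). Positive replicate 2 stood well below replicate 1 here, and the difference was -1.50 without replicate 1 and -0.62 without replicate 2. The SD of its log2 intensity was 0.63 between the positive and 0.14 between the negative replicates. Brip1, a helicase gene whose product binds BRCA1, read 383.7 and 221.9 against 669.6 and 538.4 (-1.04 ± 0.28, adjusted p = 0.142).

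Bard1, which encodes the ubiquitin ligase partner of BRCA1, read 250.0 and 187.6 against 425.0 and 355.0 (-0.84 ± 0.18, adjusted p = 0.0991). Its other features differed by -0.78 and -0.68, so the 3 features had the same direction. Brca2, which acts before strand pairing, differed by -0.59 ± 0.18 (adjusted p = 0.175). Palb2, which links BRCA1 to BRCA2, differed by -0.51 ± 0.20 (adjusted p = 0.260).

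The related genes Rad51b, Rad51c, Rad51d and Xrcc3, which support recombination, differed unequally in size. Rad51b read 189.7 and 127.2 on the positive arrays, against 320.2 and 267.3 on the negative arrays, without overlap (-0.91 ± 0.22, adjusted p = 0.118). Rad51c read 198.0 and 158.7 against 274.5 and 200.7, with positive replicate 1 close to negative replicate 2 (-0.41 ± 0.20, adjusted p = 0.355). For Rad51d the fractions overlapped, at 344.5 and 251.8 against 350.7 and 305.0 (-0.15 ± 0.18, adjusted p = 0.761), and its difference turned to 0.075 without positive replicate 2. Xrcc3 had the smallest difference of the class (-0.11 ± 0.10, 95% interval from -0.37 to 0.15, adjusted p = 0.660). None of the 4 passed the limma test, and 1 was lower at an unadjusted p under 0.05, against 9.83% of features.

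Break sensing and end processing held both the less and the more different genes. The kinase genes Atm and Atr, which signal breaks and stalled forks, had differences of at most 0.15 in size. Atm read 775.8 and 785.4 on the positive arrays, against 804.4 and 790.1 on the negative arrays (-0.03 ± 0.10, 95% interval from -0.28 to 0.21). Atr read 631.4 and 658.4 against 714.1 and 716.5 (-0.15 ± 0.10, 95% interval from -0.40 to 0.10). Both intervals include 0, which does not show that the levels were equal.

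Nbn and Rad50, subunits of the complex that binds and trims broken ends, had larger differences. Nbn read 457.2 and 420.1 against 676.9 and 658.2 (-0.61 ± 0.10, adjusted p = 0.0785), and its replicates differed little. Rad50 read 326.1 and 251.4 against 493.1 and 392.8 (-0.62 ± 0.18, adjusted p = 0.162). Blm, a helicase gene of end resection and of the dissolution of joined strands, read 658.1 and 446.4 against 885.5 and 875.3 (-0.70 ± 0.20, adjusted p = 0.153). None of the 5 genes passed the limma test. The 3 with an unadjusted p under 0.05 (Nbn, Rad50 and Blm) all had negative differences. Over all features, 9.83% met that threshold in this direction.

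**Figure D2:**
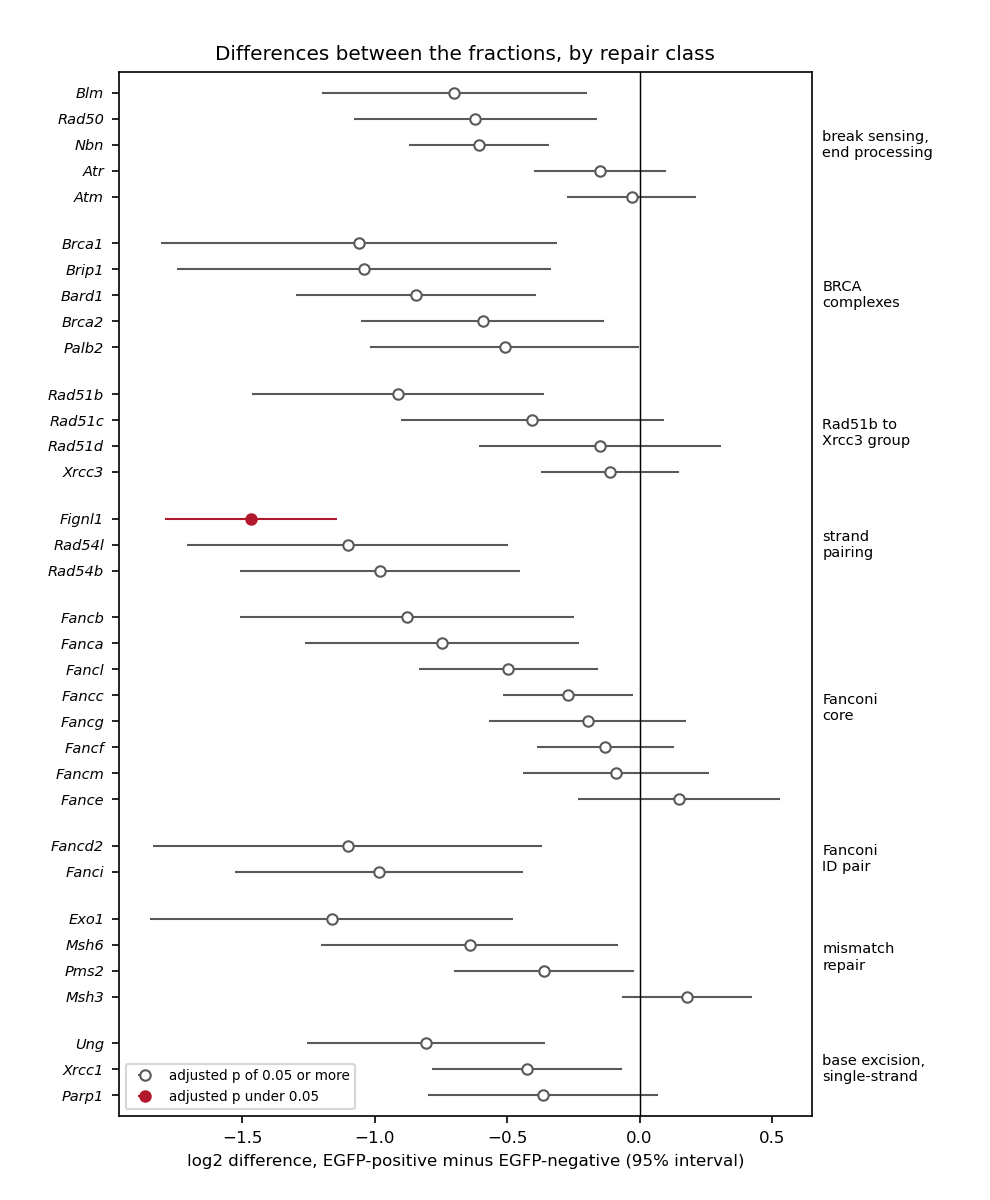
Log2 difference (EGFP-positive minus EGFP-negative) of each repair gene with limma's 95% interval, grouped by role; the filled red point passed an adjusted p of 0.05. Fignl1 lies at -1.47, and Fance (0.15) and Msh3 (0.18) are the points to the right of 0.

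In the Fanconi pathway, the ID pair differed more than most of the core. Fancd2 read 282.2 and 159.6 on the positive arrays, against 511.3 and 405.7 on the negative arrays (-1.10 ± 0.29, adjusted p = 0.137). Fanci, its partner in the clamp that is ubiquitinated at crosslinks, read 250.5 and 173.6 against 462.0 and 368.4 (-0.98 ± 0.21, adjusted p = 0.102). For both, the 2 positive arrays lay below the 2 negative ones, as they did for 25.3% of all features.

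The 8 core genes had a median difference of -0.23 and ranged from -0.88 to 0.15. None passed the limma test. The 4 with an unadjusted p under 0.05 (Fanca, Fancb, Fancc and Fancl) all had negative differences, a result shared by 9.83% of all features. Fancb, a subunit of the catalytic part of the core, read 274.2 and 163.4 against 389.1 and 388.8 (-0.88 ± 0.25, adjusted p = 0.155). Fanca read 366.4 and 252.3 against 551.2 and 471.8 (-0.75 ± 0.20, adjusted p = 0.145). Fancl, the ubiquitin ligase of the core, read 243.0 and 260.5 against 321.8 and 390.7 (-0.50 ± 0.13, adjusted p = 0.142). In contrast to Fanca and Fancb, Fancl was higher on replicate 2 in both fractions.

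Fancc differed by -0.27 ± 0.10 (adjusted p = 0.223), with 278.8 and 282.3 on the positive arrays, against 338.1 and 338.7 on the negative arrays. The remaining core genes had intervals that included 0. Fancg differed by -0.20 ± 0.15, Fancf by -0.13 ± 0.10, Fancm, the translocase that anchors the core on DNA, by -0.09 ± 0.14, and Fance by 0.15 ± 0.15. Fancm read 354.7 and 442.3 against 410.9 and 431.7, with overlapping fractions, and its difference turned to 0.071 without positive replicate 1. The difference between the core and the ID pair was not tested.

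Mismatch repair genes had differences of both signs. Exo1, the exonuclease of mismatch excision and of end resection, read 436.4 and 247.1 on the positive arrays, against 733.9 and 735.7 on the negative arrays (-1.16 ± 0.27, adjusted p = 0.114). After Fignl1 this was the largest difference among the 34 genes. Msh6, whose product recognises single mismatches, read 831.6 and 535.0 against 1079.3 and 1003.5 (-0.64 ± 0.22, adjusted p = 0.212). Msh3, its counterpart for insertion loops, read 784.5 and 775.0 against 687.9 and 689.9 and was the 1 repair gene with both positive arrays above both negative ones (0.18 ± 0.10, 95% interval from -0.07 to 0.42, adjusted p = 0.412). Pms2, part of the endonuclease that follows recognition, differed by -0.36 ± 0.13 (adjusted p = 0.238). None of the 4 passed the limma test, and 3 had an unadjusted p under 0.05, all of them lower, against 9.83% of features.

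Of the genes for base excision and single-strand break repair on the list, Ung differed most. Ung, which encodes the glycosylase that removes uracil from DNA, read 338.0 and 249.0 on the positive arrays, against 543.4 and 473.2 on the negative arrays (-0.81 ± 0.18, adjusted p = 0.104). Xrcc1, the scaffold of single-strand break repair, read 507.0 and 414.4 against 651.6 and 581.1 (-0.42 ± 0.14, adjusted p = 0.198). Parp1, the sensor of such breaks, read 1693.8 and 1303.6 against 2096.2 and 1748.4, with positive replicate 1 near negative replicate 2 (-0.37 ± 0.17, adjusted p = 0.341). In this class too the 3 genes had both positive arrays below both negative ones, against 25.3% of all features.

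The positive replicates differed from each other over these genes. Positive replicate 2 read lower than replicate 1 for 29 of 34 genes, against 45.5% of all features, and negative replicate 2 lower than negative replicate 1 for 26, against 57.5%. The median difference from the mean of the negative arrays was -0.38 for positive replicate 1 and -0.78 for positive replicate 2. Among the repair genes the SD of log2 intensity between positive replicates had a median of 0.28, against 0.10 over all features, and between negative replicates 0.13 against 0.09. Fignl1 was low on both positive arrays, at -1.37 and -1.57 from the negative mean, whereas Brca1 was at -0.62 and -1.50 and Exo1 at -0.75 and -1.57.

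Genes of other programmes also differed between these arrays. All 11 measured mitosis genes and all 18 DNA replication genes were lower on positive replicate 2 than on replicate 1, against 45.5% of features. Mitosis genes summed to 15173.2 and 7268.4 on positive arrays 1 and 2, against 25477.1 and 18606.0 on the negative arrays. Replication genes summed to 15962.1 and 9695.7 on the positive arrays, against 28226.3 and 26801.8 on the negative arrays. Of the 11 progenitor markers 9 were lower on positive replicate 2, and of the 10 photoreceptor markers 8 were higher. The part of these cell populations in the repair gene differences was not tested.

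**Figure D3:**
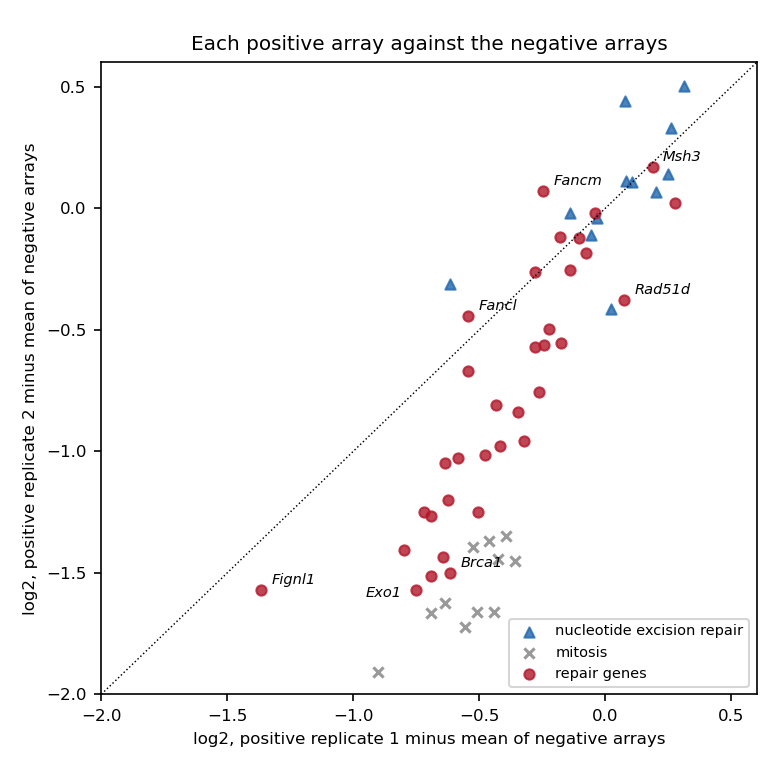
Log2 difference of each positive array from the mean of the negative arrays, replicate 1 on the x axis and replicate 2 on the y axis, for repair genes (red), mitosis genes (grey crosses) and nucleotide excision repair genes (blue triangles); the dotted line marks equality. Of the 34 repair genes 29 lie below the line, and Fignl1 lies close to it at -1.37 and -1.57.

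A further list of recombination, Fanconi and mismatch repair genes had a similar spread of differences. That list also held checkpoint genes, such as Chek1 and Clspn, and the chromatin remodeller gene Hells. Of its 28 measured genes, 23 had a difference below 0, against 52.2% of all features. Their median was -0.72. Chek1, the checkpoint kinase gene downstream of ATR, was the 1 gene of these called by limma, at 662.9 and 595.2 on the positive arrays, against 1289.6 and 1323.0 on the negative arrays, and it fell by 1.06 ± 0.11 (adjusted p = 0.0293). Its adjusted p was 0.0614 without positive replicate 2, and 0.260 and 0.230 without negative replicates 1 and 2. A further 18 were lower at an unadjusted p under 0.05, and 1 was higher, against 9.83% and 9.34% of features.

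The medians of the replication and mitosis lists lay further below 0, and those of the lists for other lesions near 0. The 18 replication genes had a median of -1.18, and all were lower at an unadjusted p under 0.05, against 9.83% of features. By the limma test 2 of them fell, against 0.143% of features. These were Rfc4, of the clamp loader (-1.47 ± 0.17, adjusted p = 0.0408), and Gins1, of the replicative helicase (-1.33 ± 0.16, adjusted p = 0.0416). The adjusted p of Rfc4 was 0.0649 without positive replicate 2, that of Gins1 stayed at 0.0419 there, and without either negative array neither was called (adjusted p from 0.127 to 0.295). Pcna, the sliding clamp, differed by -1.38 ± 0.25 (adjusted p = 0.0836). The 11 mitosis genes had a median of -1.05, and 10 of them were lower at an unadjusted p under 0.05, against 9.83% of features. None of the 11 was called by limma. The proliferation marker Mki67 differed by -0.93 ± 0.35 (adjusted p = 0.238), and the largest differences were those of the kinase genes Bub1 (-1.41 ± 0.35) and Cdk1 (-1.18 ± 0.39).

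End joining genes, which rejoin breaks without a template, had 5 of 9 members below 0 and a median of -0.04. Their largest differences were 0.54 ± 0.17 for Trp53bp1, whose product restrains end resection (adjusted p = 0.186), and -0.30 ± 0.11 for Xrcc6, which encodes a break-binding Ku subunit (adjusted p = 0.230). Nucleotide excision repair genes, which remove bulky lesions, had 5 of 12 below 0 and a median of 0.10. There Xpa differed by -0.47 ± 0.14 and Ercc2 by 0.41 ± 0.11 (adjusted p = 0.161 and 0.149). A further 13 base excision genes had a median of 0.02, although the glycosylase gene Neil3 read 617.0 and 281.8 against 1265.4 and 970.8 (-1.41 ± 0.38, adjusted p = 0.143) and Parp2 differed by -0.50 ± 0.15 (adjusted p = 0.164). None of these 3 lists had a gene called by limma. At an unadjusted p under 0.05 they had 1, 1 and 3 genes lower and 1, 2 and 1 higher. Over all features 9.83% were lower and 9.34% higher at that threshold. The differences between lists were not tested.

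**Figure D4:**
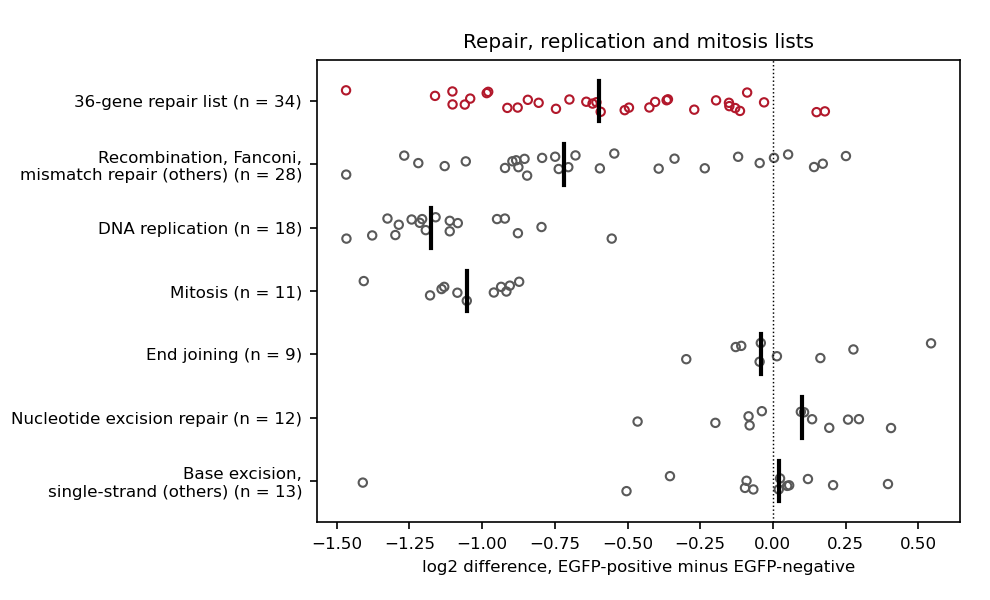
Log2 difference (EGFP-positive minus EGFP-negative) of each gene (circles, with random vertical jitter) in the repair list and 6 other lists; the black bar is the median of a list. The repair list has its median at -0.60, between those of replication (-1.18) and of nucleotide excision repair (0.10).

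Because the repair genes were mostly lower together, their promoters were searched for letters of known cell-cycle elements. The RefSeq promoter table (build GRCm38.p6, 250 bases before to 50 after a gene's start) held 31 promoters for 28 of the 34 genes. E2F factors drive genes of the start of DNA replication, and 4 runs of letters typical of their sites were searched on both strands: TTTGGCGC, TTTCCCGC, TTTGCCGC and TTTCGCGC. They stood in 7 of 31 repair promoters (22.6%), against 2.26% of all 32851 promoters. The 6 genes were Bard1, Brca2, Fancg, Msh3, Msh6 and Rad51c. CCAAT on either strand, the letters bound by NF-Y, stood in 61.3% of repair promoters and in 37.4% of all. TTTGAA on either strand, the letters of the cell-cycle homology region, stood in 6.45% and 17.9%.

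The median difference was -0.50 for the 6 genes with an E2F-type run and -0.50 for the other 22. With CCAAT it was -0.51 and without it -0.49. With TTTGAA, which rests on Bard1 and Rad51b alone, it was -0.88 and without it -0.46. No motif was tested. The stretches below contrast a gene lower in the positive fraction (Bard1), a pair near 0 (Fancg and Msh3), and Fignl1, the called gene. The Fignl1 window held none of the exact letter runs that were searched. Each is read on the gene's strand, the minus strand in all 4, with the E2F-type run in capitals, at chr1:71103148-71103207, chr4:43010320-43010379, chr13:92355168-92355231 and chr11:11808963-11809082. In Msh3 the run TTTGGCGC overlaps the reverse complement of TTTCGCGC. The Fignl1 stretch is the 120 bases before its start and has no capitals. It does hold ATTCCCGC, which differs from the searched run TTTCCCGC in its first letter. Runs with a differing letter were not counted in any promoter, so the search does not show that a gene lacks an E2F-type site.
Bard1: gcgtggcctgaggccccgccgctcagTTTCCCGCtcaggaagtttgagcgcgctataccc
Fancg: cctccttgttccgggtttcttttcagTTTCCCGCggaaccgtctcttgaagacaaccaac
Msh3: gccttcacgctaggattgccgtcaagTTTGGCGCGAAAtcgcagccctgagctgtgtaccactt
Fignl1: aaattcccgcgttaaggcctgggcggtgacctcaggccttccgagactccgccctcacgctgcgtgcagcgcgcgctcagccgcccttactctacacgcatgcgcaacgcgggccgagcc
These matches describe the letters of the reference genome, and binding at them was not measured here.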

How the data were processed

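The authors deposited 1 column of normalised intensity per array, on a linear scale. RMA (background correction, quantile normalisation and probe summarisation) and the genome build mm8 are named in the submitters' processing notes, and the version is not given in the sources used here. The linear scale was inferred from the range, 18.9 to 36625.2, with array medians of 218.4 to 222.9. Log2 was taken without a pseudocount.

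All 22431 features entered 1 fit with limma 3.58.1 (R 4.3.3; lmFit, then eBayes with no trend, with group as the 1 term), and two-sided p-values were adjusted over them all (Benjamini-Hochberg). Errors are moderated standard errors (SE) of log2 differences, with 5.26 degrees of freedom, and intervals are 95% intervals from the same fit. Precision is limited by the number of arrays. The code was tested on simulated arrays whose errors were independent between arrays. That test does not cover an effect shared by arrays of the same replicate number. Symbols of the 34 genes matched RefSeq by Entrez number.

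The members, gene lists and tests were chosen with earlier results of these data known. Every repair gene was named. Values per array were due for called genes and the 2 largest differences of each class, and were given for more. Other lists gave up to 3 called genes, or the 2 largest differences, and Crx, Rbp3, Sox2, Pcna and Mki67 served as checks. The 8 planned kinds of alternative gave 11 fits. A planned description of protein motifs was not made.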

Additional observations from a re-analysis of the deposited data

How the results depend on the processing

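The 34 differences kept their direction and their side of the threshold under a robust variance trend, centring of each array on its median, another quantile normalisation, a fit without features under the 25th percentile, the mean of a gene's features and a pseudocount of 50. The median difference stayed between -0.60 and -0.53 in these fits. Leaving out 1 array gave between 0 and 16 repair genes called lower and a median from -0.78 to -0.38. It turned the direction of Fancm (range -0.25 to 0.071) and Rad51d (-0.38 to 0.075). With the replicate block, 20 repair genes were called lower, against 6.69% of features, and 1 without it. The labels do not say what the numbers mark, and with 2 per fraction they were not taken as pairs. Differences of replicate 2 minus 1 in the 2 fractions correlated at 0.48 over all features and 0.45 over the repair genes. With the block no repair gene was called higher, against 6.14% of features, and 25 had an unadjusted p under 0.05, against 27.1% (limma). None of the 34 genes had a mean intensity below the 25th percentile of all features.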

Other observations

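In the further list of recombination, Fanconi, mismatch repair and checkpoint genes, Rpa2, Hells, Clspn and Chek2 had the lowest log2 differences. They were chosen after their values were seen, and none passed the limma test. Rpa2, a subunit of the single-strand binding protein, read 551.2 and 353.4 on the positive arrays and 1344.9 and 1107.7 on the negative arrays (-1.47 ± 0.24, adjusted p = 0.0692). Its complex partners Rpa1 and Rpa3 differed by -0.70 ± 0.13 and -0.39 ± 0.12. Hells, a chromatin remodeller gene, differed by -1.27 ± 0.26. Clspn, whose product passes the signal from ATR to CHEK1, differed by -1.22 ± 0.24, and Chek2, the kinase gene downstream of ATM, by -1.13 ± 0.38. The gene of the enzyme that takes ubiquitin off FANCD2, Usp1, differed by -0.79 ± 0.17, and that of its activating cofactor, Wdr48, by 0.25 ± 0.10. Neither passed the test (adjusted p = 0.0952 and 0.250), and the difference between these partners was not tested.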
